A study of Mus musculus with 18 samples.

Results

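The Myc, Max and Mxd network is a set of transcription factors that share 1 partner and 1 DNA site. It was followed here through 9 probe sets, each a group of short DNA probes for 1 transcript, chosen because their platform symbol was Myc, Mycn, Max, Mnt, Mxd1, Mxd3, Mxd4 or Mxi1. These are 8 of the 8251 genes, and 9 of the 12488 probe sets, on the array. Mycn had 2 probe sets and each other gene had 1.

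The cells were G1E-ER4, a mouse erythroid line from embryonic stem cells whose Gata-1 gene had been disrupted. All 18 samples, untreated ones included, carried Gata-1-ER, a fusion of Gata-1 with the part of the estrogen receptor that binds estradiol. RNA was taken from untreated cells (0 h) and after 3, 7, 14, 21 and 30 h with estradiol, in 3 biological replicates lettered A, B and C at each time. Per the labels, these 30 h span late BFU-E, an early red cell progenitor, to orthochromatic erythroblast, the last stage with a nucleus. ER4 is 1 subclone, and neither cells without the fusion nor untreated cells of a later time were among the samples. The fall or rise of a gene therefore cannot be told apart from an effect of estradiol itself or of time in culture.

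Myc and Mycn are activators that promote growth, ribosome production and cell division. They bind DNA only when paired with Max. Max also pairs with the Mxd proteins (Mxd1, Mxd3, Mxd4 and Mxi1) and with Mnt, and these pairs recruit Sin3 repressors to the same E-box sites. In maturing blood cells a change from Myc to Mxd partners is known to go along with the end of cell division.

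The shared site is CACGTG, which reads the same on both strands. RefSeq promoter windows (GRCm38.p6, 250 bases before to 50 after a transcription start) were found for 7 of the 8 genes, all but Myc. The site lay in the windows of Max, Mnt and Mxd4, and these stretches are shown because they hold the sequence that the network's own proteins bind; the site is in capitals. The Max stretch is chr12:76962224-76962311 (minus strand), the Mnt stretch chr11:74830741-74830866 (plus strand) and the Mxd4 stretch chr5:34187864-34187960 (minus strand).
Max: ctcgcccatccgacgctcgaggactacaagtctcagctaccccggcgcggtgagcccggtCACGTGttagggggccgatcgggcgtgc
Mnt: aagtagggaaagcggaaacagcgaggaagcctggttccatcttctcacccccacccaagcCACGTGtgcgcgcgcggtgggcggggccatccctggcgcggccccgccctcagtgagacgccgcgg
Mxd4: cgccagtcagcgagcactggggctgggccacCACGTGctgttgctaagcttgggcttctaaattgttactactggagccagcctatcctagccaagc

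The site began 3 bases before the start in Max, 123 bases before it in Mnt and 219 bases before it in Mxd4. CACGTG was in 3 of the 9 windows of the network, in 7.15% of all 32851 windows of that length and in 9.55% of the 8409 windows of genes with a probe set. The Gata motifs AGATAA and TGATAA, searched on both strands, were in 0 of the 9 windows, in 18.6% of all windows and in 11.8% of those of genes with a probe set. A match in these letters is a description and shows no binding, and the arrays measured RNA only.

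The arrays were alike in overall level. The median signal of an array lay between 38.2 and 50.9, its first quartile between 9.5 and 14.5, and arrays of the same time correlated at 0.954 to 0.974 over all probe sets. No detection calls were among the values, so signals near or below the first quartile are read as dim. Markers of the red cell lineage were bright: 9 were measured, 6 were called higher at 30 h, and their summed signal went from 10190 to 12101 at 0 h to 56099 to 66623 at 30 h, with Epb42 dim throughout (at most 43.3). Markers of neutrophils and macrophages (10 measured) summed to 256 to 287 at 0 h and 292 to 438 at 30 h, and none of them was called at 30 h by limma (adjusted p from 0.173). Megakaryocyte markers (3 measured) summed to 56.8 to 67.2 at 0 h, 111 to 192 at 14 h and 60 to 69.6 at 30 h. Mast cell markers (5 measured) summed to 119 to 134 at 0 h and 153 to 173 at 30 h, where Cma1 was higher by 1.68 and Cpa3 lower by −0.70. Lymphocyte markers (6 measured) summed to 150 to 215 at 0 h and 120 to 182 at 30 h, and fibroblast markers (6 measured) to 549 to 670 and 674 to 954. The part of these shifts in the results was not tested.

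Over the course Myc fell without a return, while Mxd1, Mxd4 and Max rose. Mnt was lower from 3 h to 14 h and was not called at 21 h and 30 h, Mxd3 fell late, and Mycn stayed dim. The F test of limma over the 6 times called 7 of the 9 probe sets (adjusted p below 0.05), the exceptions being those of Mycn. Among all 12422 probe sets tested it called 27.2%. Changes below are log2 differences of signal + 16, which understates them for dim genes, with the standard error (SE) of the model. P values are limma's, adjusted by Benjamini-Hochberg over the 12422 probe sets of that comparison.

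**Figure D1:**
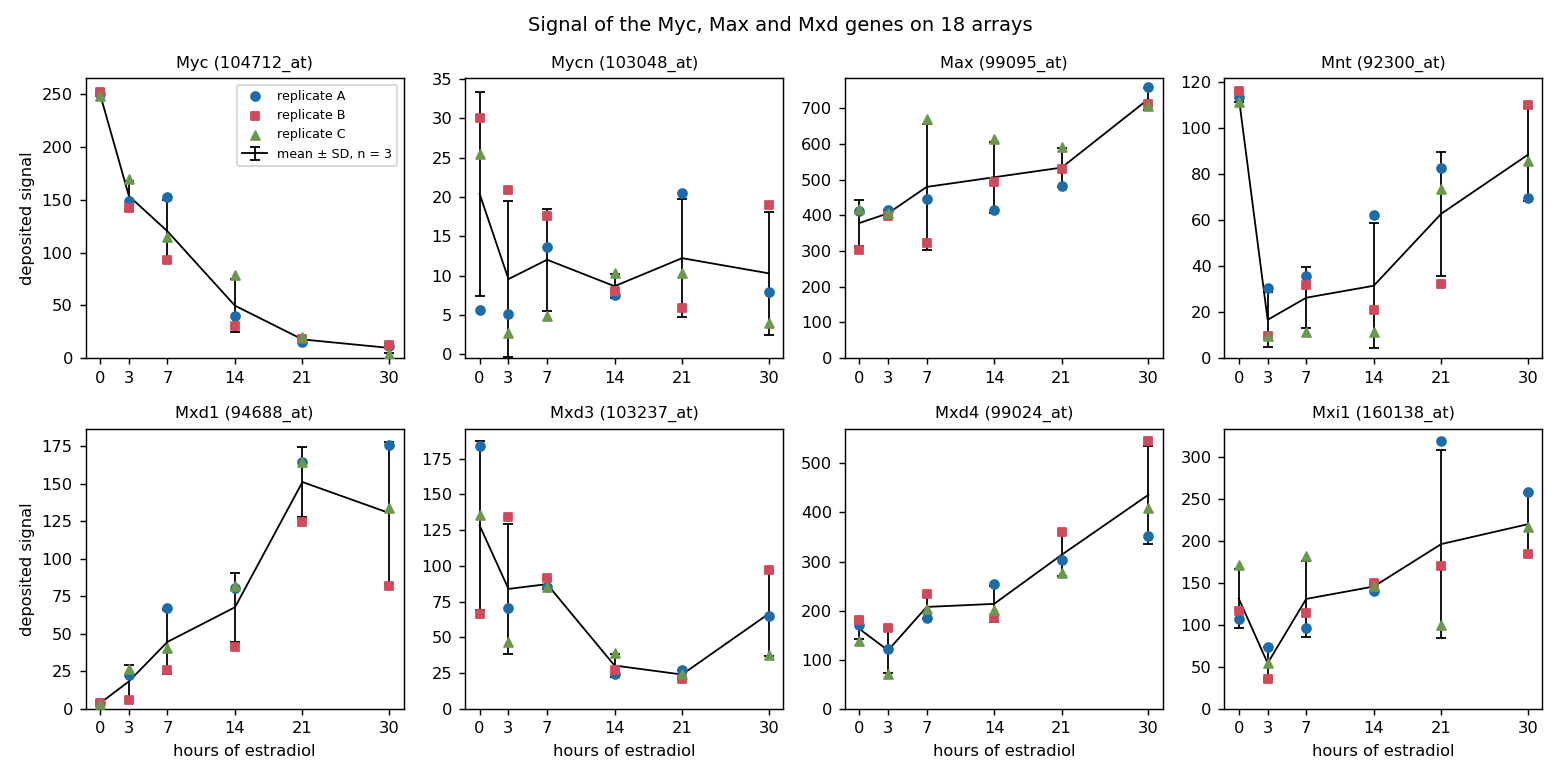
Deposited signal (linear scale) of 1 probe set for each of the 8 genes against hours of estradiol; points are the 3 replicate arrays of each time, and lines and bars are their mean ± SD. Myc goes from a mean of 250.3 to 9.7, Mxd1 from 3.7 to 130 and Mxd4 from 163 to 436, while Mnt dips to 16.7 at 3 h.

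Myc, the activator that drives growth of progenitors, gave signals of 250.6, 252.3 and 248 in replicates A, B and C at 0 h. After 3 h they were 149.1, 142 and 169.7. After 7 h they were 152.2, 93.3 and 114.9. All 6 of these arrays lay below the 3 untreated ones, and the arrays of 3 h and 7 h overlapped each other. The 14 h arrays gave 39.8, 30.9 and 78.4, those of 21 h 14.9, 18.6 and 19.7, and the last 11.9, 12.9 and 4.3. From 14 h on the signals of each time lay wholly below those of the time before it, and the last values were in the dim range. After normalization the arrays of 21 h and 30 h overlapped (30 h B at 4.96 in log2, 21 h A at 4.81). In bulk RNA, fewer cells with the transcript and less of it in each cell cannot be told apart.

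At 3 h the Myc difference was −0.64 (SE 0.27, 95% interval −1.20 to −0.07) and did not pass the test (adjusted p = 0.506). By 7 h Myc was lower by −0.97 (SE 0.27, adjusted p = 0.0459 by limma). That call was narrow: it was lost with the replicate block (adjusted p = 0.0561), with a constant of 1 (adjusted p = 0.230) and without any array of 0 h or 3 h, 7 h B, 7 h C, 21 h B, 21 h C or 30 h A (adjusted p between 0.0528 and 0.199, change −0.84 to −0.98). The fall reached −2.08 at 14 h (adjusted p = 1.94e-05), −2.94 at 21 h (adjusted p = 1.17e-07) and −3.36 at 30 h (SE 0.27, adjusted p = 1.05e-08). These 3 calls held in all 27 alternative fits. Mean signal was 250.3 (SD 2.17, n = 3) at 0 h and 9.7 (SD 4.70, n = 3) at 30 h, where it is too dim for a firm fold.

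Between neighbouring times, the step of Myc from 7 h to 14 h passed the test (−1.11, SE 0.27, adjusted p = 0.0326 by limma). Without 7 h A, 7 h C, 14 h A or 14 h B the change was −0.94 to −1.11 and its adjusted p 0.0937 to 0.151, and a fit of these 2 times alone gave −1.11 with an adjusted p of 0.213. It was the only called member of the 9 in that step, against 2.33% of all probe sets. The steps from 14 h to 21 h (−0.85, SE 0.27, adjusted p = 0.116) and from 21 h to 30 h (−0.42, 95% interval −0.98 to 0.14) did not pass, although the deposited signals did not overlap. In the normalized values that were tested, the arrays of 21 h and 30 h did overlap.

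Mycn, the Myc relative best known from the developing nervous system, lay below the array's own median signal on all 18 arrays by both probe sets. Its brighter probe set read 5.7, 30.1 and 25.5 at 0 h, and its lowest, median and highest values over the course were 2.7, 9.15 and 30.1. The other, whose name marks probes that break a design rule, lay between 0.4 and 18.4. At 30 h the differences were −0.44 (95% interval −1.11 to 0.22) and −0.23 (95% interval −0.77 to 0.32), and neither passed the test at any time. Mycn thus stayed in the dim range of the array.

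Max, the partner that the others share, was well measured at every time. It read 413.1, 303.3 and 418.3 untreated and 414.4, 396.9 and 405.7 after 3 h. The 7 h arrays gave 445.5, 323.4 and 669.8, those of 14 h 415.3, 492.2 and 612.6, and those of 21 h 481.4, 528.8 and 591. At 30 h Max read 760.6, 710.7 and 705.5, and all 3 arrays lay above all others of the course. From 0 h the difference was 0.52 at 21 h (SE 0.19, adjusted p = 0.0657), which 5 of 27 alternative fits called (adjusted p 0.0214 to 0.0469), the replicate block and fits without 7 h B or 7 h C among them. At 30 h Max was higher by 0.96 (SE 0.19, adjusted p = 0.000714 by limma), a mean signal of 726 (SD 30.4, n = 3) against 378 (SD 64.9, n = 3). The last step alone, from 21 h to 30 h, was 0.44 (95% interval 0.03 to 0.85, adjusted p = 0.260).

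**Figure D2:**
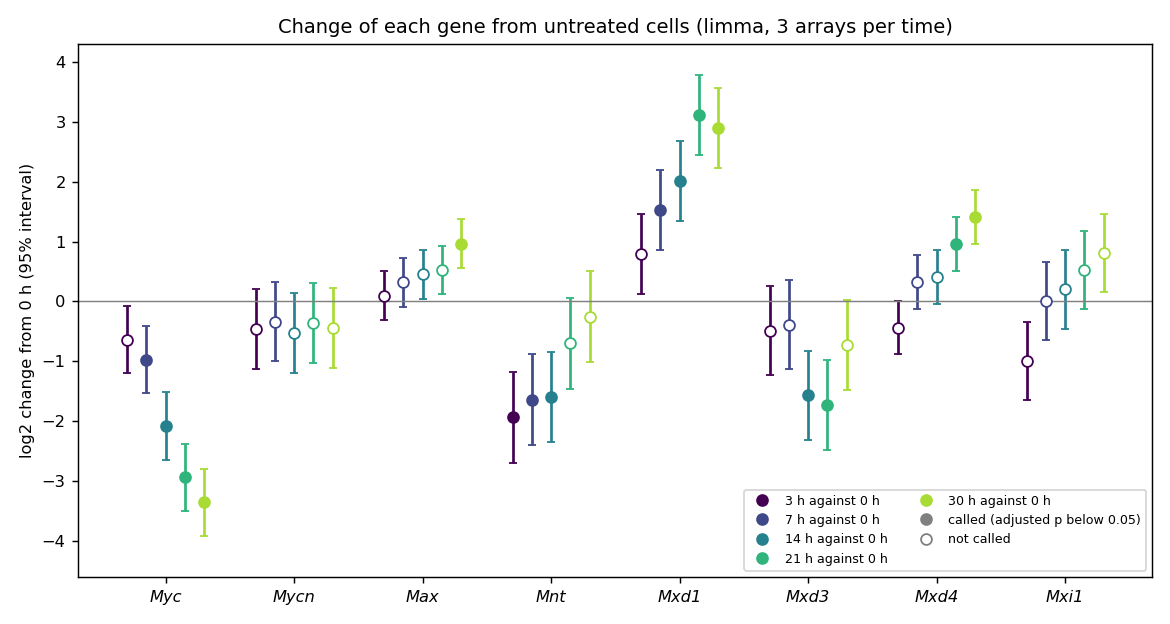
Log2 change of each gene from untreated cells at 3, 7, 14, 21 and 30 h (limma estimate with its 95% interval, 3 arrays per time; brighter Mycn probe set). Filled points passed an adjusted p of 0.05: the Myc series descends to −3.36, Mxd1 reaches 3.12 at 21 h, and Mnt is filled at 3, 7 and 14 h only.

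Mxd1, a repressor that is induced in many cells as they leave the cycle, was the member with the largest rise. Untreated arrays gave 3.6, 4.1 and 3.4, below their own first quartile, and those of 3 h 22.7, 5.7 and 26.3. After 7 h Mxd1 read 67.5, 25.8 and 40.5, and after 14 h 80.2, 41 and 81.8. The 21 h arrays gave 164.8, 124.3 and 164.3 and the last 175.9, 81.6 and 133.9. Every array after estradiol lay above all 3 untreated arrays, and those of 21 h and 30 h overlapped. The difference from 0 h was 0.80 at 3 h (SE 0.32, adjusted p = 0.455), then 1.53 at 7 h (adjusted p = 0.00703), 2.01 at 14 h (adjusted p = 0.000181), 3.12 at 21 h (adjusted p = 5.01e-07) and 2.90 at 30 h (SE 0.32, adjusted p = 7.17e-07). The start is so dim that the size depends on the constant added: at 30 h it was 4.78 with 1 and 1.54 with 64. With 64 the 7 h call was lost (0.65, adjusted p = 0.0579). The step from 14 h to 21 h (1.10, SE 0.32, adjusted p = 0.0826) was called in 3 of 27 alternative fits, the replicate block among them (adjusted p = 0.0258).

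Mxd4, the Mxd protein also called Mad4 and linked to differentiated cells, read 170.6, 180.4 and 138.4 untreated and 121.8, 164.3 and 70.7 after 3 h. The 7 h arrays gave 184.8, 234.8 and 202.8 and those of 14 h 254.5, 185.6 and 201.1. By 21 h Mxd4 read 303.9, 359.9 and 276.9, and by 30 h 351.7, 546 and 409.9. From 7 h on all arrays lay above the untreated ones. At 3 h the difference was −0.44 (95% interval −0.89 to 0.02) and at 14 h 0.41 (95% interval −0.04 to 0.86). Mxd4 was called higher at 21 h (0.96, SE 0.21, adjusted p = 0.00259) and at 30 h (1.41, SE 0.21, adjusted p = 3.62e-05 by limma), and both calls held in all 27 alternative fits. Mean signal at 30 h was 436 (SD 99.7, n = 3), 2.67 times that at 0 h.

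Mxi1, a further Mxd-type repressor, read 106.3, 116.2 and 171.2 untreated and 73.7, 35.2 and 54 after 3 h. The 7 h arrays gave 96, 114.4 and 182 and those of 14 h 140.6, 150 and 146. By 21 h Mxi1 read 318.8, 169.4 and 100, and by 30 h 258.6, 184.6 and 216.1. The 3 h arrays lay below and the 30 h arrays above all untreated ones. Neither difference passed the test: it was −0.99 at 3 h (SE 0.31, 95% interval −1.65 to −0.34, adjusted p = 0.208) and 0.81 at 30 h (SE 0.31, 95% interval 0.15 to 1.46, adjusted p = 0.0652). The 30 h difference was called in 5 of 27 alternative fits (adjusted p 0.0201 to 0.0434), without 0 h C, 21 h A or 21 h C among them.

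Mxd3, which is known from dividing progenitors rather than from mature cells, moved the other way. It read 183.5, 66.1 and 135.4 untreated, 70.8, 134.2 and 46.6 after 3 h and 85, 91.4 and 85.2 after 7 h. The 14 h arrays gave 24.3, 27.2 and 39.3 and those of 21 h 27, 20.8 and 24.1. These 6 overlapped each other and lay wholly below the arrays of 0, 3 and 7 h. At 30 h Mxd3 read 65.2, 97 and 37.4 and overlapped the untreated arrays. Mxd3 was called lower at 14 h (−1.57, SE 0.36, adjusted p = 0.00491) and at 21 h (−1.73, SE 0.36, adjusted p = 0.00123 by limma), in all 27 alternative fits. At 30 h the difference was −0.73 (95% interval −1.48 to 0.02, adjusted p = 0.156), with a call without 0 h B (−1.09, adjusted p = 0.0353). All 3 arrays of 30 h lay above those of 21 h, but that step did not pass (95% interval 0.25 to 1.75, adjusted p = 0.135).

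Mnt, the broadly expressed Max partner that competes with Myc, was the only member called at 3 h. The 3 h differences of Myc, Mxd1 and Mxi1, given above, did not pass the test, so an order of movement is not shown. Untreated arrays gave 113.4, 116 and 111.4, within a narrow range, and those of 3 h 30.4, 9.8 and 9.8. After 7 h Mnt read 35.8, 31.8 and 11.2, and after 14 h 62.3, 20.8 and 11.3. By 21 h it read 82.5, 32.1 and 73.7, and by 30 h 69.7, 109.9 and 85.7. In deposited signal every array after estradiol lay below all 3 untreated ones. After normalization 30 h B (7.10 in log2) lay above the untreated arrays (6.94 to 7.00). Mnt was lower by −1.94 at 3 h (SE 0.36, adjusted p = 0.00733), −1.64 at 7 h (adjusted p = 0.0105) and −1.59 at 14 h (adjusted p = 0.00467 by limma). The first of these calls was lost without 3 h B (−1.78, adjusted p = 0.0519) and the second without 7 h C (−1.38, adjusted p = 0.0684). The lowest Mnt arrays of 3, 7 and 14 h were in the dim range. Over the alternative fits the 3 h change ran from −2.71 to −1.09, so its size is not firm. At 21 h the difference was −0.70 (95% interval −1.46 to 0.06) and at 30 h −0.25 (95% interval −1.01 to 0.50), and neither passed.

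A direct comparison of 30 h with 3 h was chosen after the values had been seen. The mean of Mnt, Mxi1 and Mxd4 was lowest at 3 h, so the choice itself favours a rise in these genes. Their p values here are therefore no evidence of a rise, and the differences describe its size only. The count of calls in this comparison is favoured in the same way. Mnt was higher by 1.68 (SE 0.36, adjusted p = 0.00130) and Mxi1 by 1.80 (SE 0.31, adjusted p = 0.000165 by limma). Mxd1 (2.10), Mxd4 (1.85) and Max (0.86, adjusted p = 0.00203) were higher too, and Myc was lower (−2.72). These are 6 of 9 probe sets, and 26.3% of all probe sets were called in this comparison (12.6% higher, 13.7% lower). The count was 6 in each of the alternative fits.

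By comparison, the calls gathered as follows. At 3 h 1 of 9 members was called, Mnt (lower), beside 1.06% of all probe sets (0.757% higher, 0.306% lower). At 7 h 3 were called, Mxd1 (higher), Myc and Mnt (lower), beside 4.17% (2.48% higher, 1.69% lower). At 14 h Mxd3 joined those that were lower, which made 4, beside 13.3% (6.55% higher, 6.77% lower).

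At 21 h 4 were called, Mxd1 and Mxd4 (higher) and Myc and Mxd3 (lower), beside 20.7% of all probe sets (9.75% higher, 10.9% lower). At 30 h 4 were called, Max, Mxd1 and Mxd4 (higher) and Myc (lower), beside 26.7% (12.8% higher, 13.8% lower). In 6 of the 9 the deposited signals of 30 h and 0 h did not overlap, as was so for 37.5% of all probe sets. Mnt is among the 6, although its normalized values at these times overlapped. The network's median difference at 30 h was −0.23, against 0.05 for all probe sets, with called members on both sides. That middle value is the one of the dimmer Mycn probe set, so it shows no lean of the network to 1 side.

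Of the steps between neighbouring times, the first (Mnt) and that from 7 h to 14 h (Myc) had 1 call each. From 3 h to 7 h limma called 0 of 9 (1.06% of all probe sets), with 3 at an unadjusted p under 0.05; Mxd4 was higher by 0.76 (adjusted p = 0.130) and was called without 3 h B (0.99, adjusted p = 0.0472). From 14 h to 21 h it called 0 of 9 (2.32% of all), with 4 at an unadjusted p under 0.05, and from 21 h to 30 h 0 of 9 (4.98% of all), with 3.

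**Figure D3:**
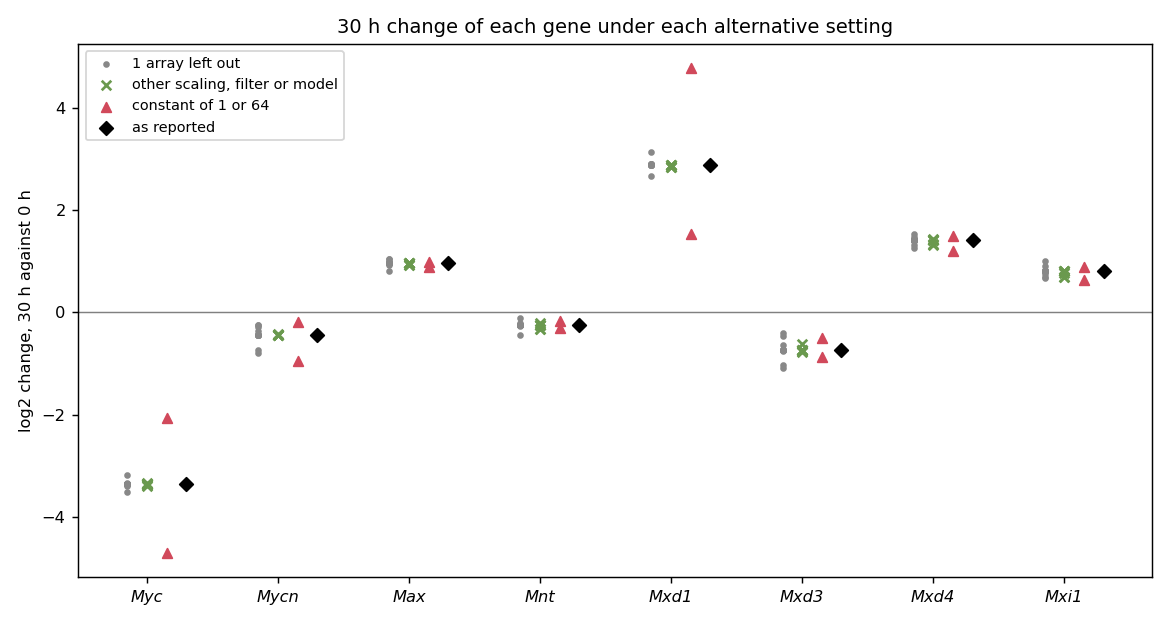
Log2 change from 0 h to 30 h of each gene under each setting: as reported (diamonds), with 1 array left out (dots), with another scaling, filter or model (crosses) and with a constant of 1 or 64 added before the log (triangles). The constant spreads Myc from −4.70 to −2.06 and Mxd1 from 1.54 to 4.78; no gene changes side.

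Genes known to be activated by Myc fell with it. Of 70 listed, 63 were measured, each by its brightest probe set. At 3 h limma called 0 of them, with 3 higher and 0 lower at an unadjusted p under 0.05, beside 1.02% higher and 0.388% lower calls among all 8251 genes. At 7 h 14 were lower and 1 higher, beside 2.11% lower and 3.21% higher of all genes. At 14 h 34 were lower and 2 higher (8.17% and 8% of all genes), and at 21 h 49 and 1 (13.1% and 11.4%). At 30 h 52 were lower and 1 higher, beside 16.5% lower and 14.7% higher of all genes. The list's median went from −0.11 at 3 h to −0.38, −0.87, −1.43 and −1.75 at 30 h, where the median of all genes was 0.05.

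The 6 of this list with the strongest change over time were all lower at 30 h. Cdca7, which binds chromatin in dividing cells, went from a mean signal of 1165 to 43.3 (−4.37, SE 0.21). Gar1 and Fbl belong to the particles that modify ribosomal RNA, and they changed by −3.97 (2735 to 164) and −2.52 (3057 to 553). Ddx18, an RNA helicase of ribosome production, changed by −2.65 (662 to 88.3), and Rrs1, a ribosome assembly factor, by −3.15 (843 to 79.5). Mcm4, a subunit of the replication helicase, fell by 3.76 (983 to 61.2). The largest adjusted p among these 6 was 5.02e-10 in limma.

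Exceptions in this list were few. Slc7a5, a carrier of large amino acids, was the 1 gene higher at 30 h (1149 to 2373, 0.88, SE 0.24, adjusted p = 0.00848), and it was also the 1 higher at 7 h (0.88). Tfrc, the transferrin receptor that brings iron into red cell precursors, was higher at 21 h (1.28, adjusted p = 0.00508) and stood at 0.71 at 30 h (adjusted p = 0.110). Mthfd2 (0.53) and Id2 (0.52, signals of 3.87 and 13.4) were the 2 higher at 14 h.

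CACGTG was in 19 of 76 promoter windows of this list. Of 14 measured genes with it, 12 were lower at 30 h, with a median of −1.41. Of 40 without it, 32 were lower, with a median of −1.80, and 9 genes had no window in the table. The measured genes with these letters in the window did not have the larger median fall. That difference was not tested, and sites outside the windows were not searched.

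Of genes known to be held down by Myc, all 21 listed were measured. At 3 h limma called 0 of them, with 2 higher and 4 lower at an unadjusted p under 0.05. After 7 h 3 were called higher (3.21% of all genes), after 14 h 8 (8% of all genes), after 21 h 8 (11.4%) and after 30 h 10 (14.7%). None was called lower at any time, with 0 lower at 30 h also at an unadjusted p under 0.05. Their median was 0.74 at 30 h, against 0.05 for all genes. Btg2, a brake on cell division, rose from 292 to 3214 by 30 h (3.35, SE 0.22, adjusted p = 7.27e-10) and was already up by 2.14 at 7 h. Gadd45g and Gadd45a, stress-induced growth arrest genes, rose by 2.58 and 2.23, and Ddit3, a stress-induced transcription factor, by 2.25. Cdkn2c, an inhibitor of the G1 kinases, rose by 2.03 (230 to 982) and Klf6, a zinc finger factor, by 1.92 (64.8 to 273).

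**Figure D4:**
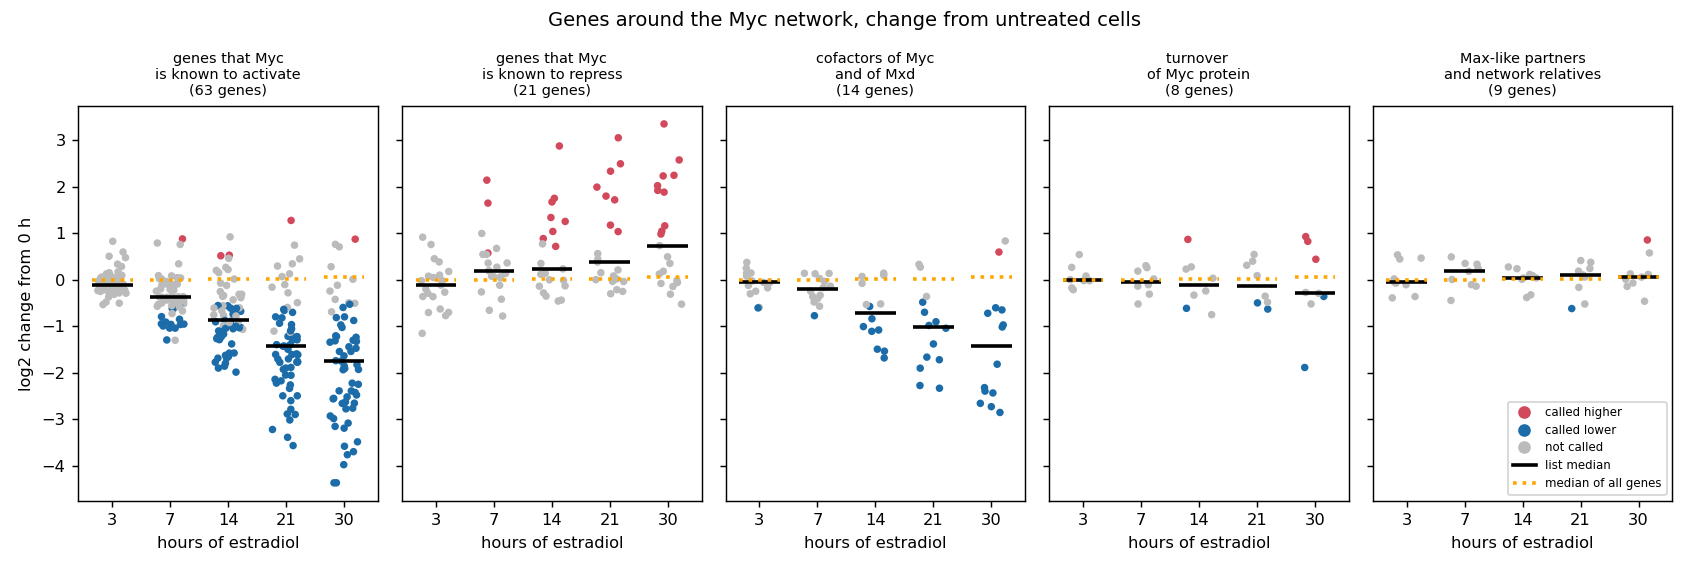
Log2 change from 0 h of every measured gene in 5 lists at 3, 7, 14, 21 and 30 h; colours give the limma call, black bars the list median and dotted bars the median of all 8251 genes. At 30 h 52 of 63 genes that Myc is known to activate are lower and 10 of 21 that it is known to repress are higher.

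Cofactors of Myc and of the Mxd proteins mostly fell, on both sides of the network. Of 14 measured, 1 was lower after 3 h (0.388% of all genes were lower) and 1 after 7 h (2.11%). The number was 8 after 14 h (8.17% of all genes were lower), 11 after 21 h (13.1%) and 12 after 30 h (16.5%), with a last median of −1.41 against 0.05 for all genes. Among partners of Myc, the helicases Ruvbl1 (722 to 92.3, −2.73) and Ruvbl2 (1484 to 286, −2.32), the acetyltransferase Kat2a (143 to 13.5, −2.39), the actin-related Actl6a (456 to 70.2, −2.43) and the histone methylation scaffold Wdr5 (747 to 102, −2.85) were lower at 30 h (adjusted p at most 3.23e-07). Ruvbl2 was the 1 gene already lower at 7 h (−0.77).

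On the Sin3 side, Rbbp7, a histone-binding subunit, fell most (2237 to 352, −2.66, SE 0.15), and the deacetylases Hdac2 and Hdac1 were lower by −1.81 and −0.97. The scaffold Sin3a, which the Mxd proteins bind, was the 1 cofactor called at 3 h (−0.60, adjusted p = 0.0313) and was −0.65 at 30 h (443 to 259, adjusted p = 0.000958). Its close relative Sin3b was the 1 cofactor higher at 30 h (591 to 911, 0.60, SE 0.12, adjusted p = 0.000837 by limma), by a probe set whose name marks probes that may read related transcripts. Of all genes, 14.7% were higher at that time. Sin3a and Sin3b, both docking proteins of the Mxd repressors, were thus called in opposite directions at 30 h.

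Genes for the turnover of Myc protein had calls in both directions. Of 8 measured, 3 were higher and 2 lower at 30 h, beside 14.7% higher and 16.5% lower of all genes, so the lower count was near that of all genes. Fbxw7, which marks Myc for destruction, went from 69.3 to 130 (0.83, SE 0.19, adjusted p = 0.00267), Ppp2r5a, a phosphatase subunit that acts on Myc, from 466 to 918 (0.93, adjusted p = 2.65e-05), and Bin1, a Myc-binding adaptor, by 0.44 (adjusted p = 0.0477). Aurka, a mitotic kinase that stabilizes Mycn, was higher at 14 h (0.87, adjusted p = 0.0153) and lower at 30 h (224 to 49.7, −1.88). The ubiquitin ligase Huwe1 was lower at 30 h (−0.36, adjusted p = 0.0385). The list's count of lower genes was 1 without 0 h B, 0 h C or any 1 of the 30 h arrays, and also under median scaling, without the intensity trend, with the compared times alone and with each gene's probe sets averaged. Stub1, a ligase of the chaperone system, and Axin1, a scaffold of Gsk3, stood at −0.29 and −0.27 at 30 h and did not pass there; both were lower at 21 h (−0.50 and −0.63).

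Of the other E-box factors and partners, 9 were measured. At 3, 7 and 14 h limma called 0 of them, with 1, 0 and 0 at an unadjusted p under 0.05. Among all genes 1.02% were higher and 0.388% lower at 3 h, and 8% and 8.17% at 14 h, so that few calls among 9 genes would be near those shares. Mycbp2, a large ubiquitin ligase named for binding Myc, was the 1 higher at 30 h (209 to 364, 0.86, adjusted p = 0.00648), and Tfeb, a regulator of lysosome genes, the 1 lower at 21 h, in the dim range (19.6 to 6.8, −0.62, adjusted p = 0.0449). Of all genes, 14.7% were higher at 30 h and 13.1% lower at 21 h, so 1 call among 9 is near those shares. Mlx, which leads a sister network, was at 234 and 236 at 0 h and 30 h (0.13, SE 0.14). Usf1 (0.06, the brighter of its 2 probe sets), Mycs (0.12) and Mycl (0.58, signals of 12.1 and 27.1) were not called at 30 h. The list's count of higher genes at 30 h was 2 without 30 h B and with each gene's probe sets averaged. Its count of lower genes was 1 without 0 h A.

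By Pearson correlation of normalized log2 values over the 18 arrays, among 2641 other genes called in the F test, those most like Myc in course were Pa2g4 (r = 0.984), Gtpbp4 (0.983), Nop58 (0.981), Snhg5 (0.978) and Bcap29 (0.978). Their mean signals fell from 427 to 21.8, 1391 to 309, 541 to 33.7, 219 to 16.8 and 543 to 83.1 by 30 h. Most like Mxd1 were Ift20 (0.951), Mknk1 (0.951), Btn1a1 (0.948), Wdr92 (0.946) and Csf2rb2 (0.945). All these points share the same 18 arrays and 6 times, so the values describe a shared course in time. The Nop58 probe set is of a kind that may read related transcripts.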

How the data were processed

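Each of the 18 samples was hybridized to 1 Affymetrix MG-U74Av2 array, per the labels. The deposited values are signal intensity values on a linear scale; how probes were summarised is not given in the sources used here. Trimmed means of 150.1 on every array (2% off each end) show that arrays had been scaled before deposit. No 2 arrays were identical.

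From these values, log2(signal + 16) was quantile normalized and fitted with limma 3.58.1 (R 4.3.3), 1 mean per time, 12 residual degrees of freedom, eBayes with an intensity trend. The 66 control probe sets were left out. Benjamini-Hochberg adjustment ran over 12422 probe sets per comparison. Symbols came from the platform table, in which 10833 probe sets carry 1 symbol; all 9 member probe sets matched RefSeq by gene number. The fit was also run on simulated arrays. Changes were planted there only in probe sets above the median level, so that run says nothing about dim members. Replicates are called biological in the labels. An exact permutation of 3 against 3 arrays cannot go below p = 0.1, so tests rest on variance shared across probe sets.

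Every member is described. From each list the 6 genes with the smallest F test p are named; other list genes were picked with their values in view. For Myc and Mxd1 the 5 most correlated genes are named. The members and lists were chosen with earlier results of these data known. The replicate letters were not used as a block in the reported fit. Alternatives were other scalings and constants, a filter on dim probe sets, other variance models, array weights, the replicate block, a fit of the compared times alone and each array left out.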

Additional observations from a re-analysis of the deposited data

How the results depend on the processing

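Of 23 member changes past the threshold, 18 kept direction and call in all alternatives (27 for each), and none of the changes given in the text reversed. The exceptions were Myc at 7 h and from 7 h to 14 h, Mnt at 3 h and at 7 h, and Mxd1 at 7 h. The 23 include the 6 from 30 h against 3 h, a comparison chosen after the values had been seen. All 6 are among the 18. Leaving out 1 array gave 0 to 1 members called at 3 h, 1 to 3 at 7 h, 0 to 1 from 3 h to 7 h and 0 to 1 from 7 h to 14 h. The count from 7 h to 14 h was also 0 with a constant of 1, with array weights and with the compared groups alone. From 14 h to 21 h it was 1, Mxd1, with a constant of 64, without the dimmest probe sets and with the replicate block, and 0 in the reported fit. The letters were not taken to pair the arrays, since 3 of 45 same-letter pairs had deviations that correlated above 0.1 (median 0.0266). The median between arrays of different letters was −0.0078, so a weak pairing by letter cannot be set aside. As a hint from the data, 13 of 18 arrays correlated best with their own letter. The replicate block also ended the Myc call at 7 h (adjusted p = 0.0561) and made one for Max at 21 h. Genes that Myc is known to activate and that were called lower at 30 h numbered 50 to 54 in all settings; their median was −1.31 with a constant of 64 and −1.44 with each gene's probe sets averaged. That of the cofactors was −1.65, −1.09 and −1.12 with constants of 1 and 64 and with that averaging, and that of the genes Myc is known to repress was 1.10 without the dimmest probe sets. The filter on dim probe sets removed both Mycn probe sets. Under the scalings tried, the median of all probe sets moved by less than 0.1. Each of these scalings brings the arrays to a common level, so a change in total RNA was not tested. The number of calls did move. At 7 h against 0 h 308 probe sets were higher and 210 lower as reported, and 194 and 126 under median scaling. Dim signals limit Mycn at all times, Mxd1 at 0 h, Mnt on some arrays of 3 h, 7 h and 14 h, and Myc at 30 h.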
